A study of Mus musculus with 12 samples.

Results

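The matrix metalloproteinases described here are 10 genes, Mmp2, Mmp3, Mmp9, Mmp10, Mmp11, Mmp12, Mmp13, Mmp14, Mmp19 and Mmp23, out of 18193 genes measured on an Affymetrix mouse expression array. They were listed by name, and every probe set that the platform annotation pairs with exactly 1 symbol, that of a listed gene, was taken. This gave 16 probe sets, and 5 of the genes had several. Where a gene had several, the one with the highest mean of all 12 arrays stood for it. RNA came from sorted dermal fibroblasts of mouse back skin, 4 arrays in each of 3 groups, and all mice were 7-week-old males that carried a PDGFRα-H2B-eGFP allele, a fluorescent nuclear reporter of the PDGF receptor alpha. The normal group came from wild-type skin. The inflamed group came from InvEE skin, and the tumour-associated group from InvEE skin at papillomas. In InvEE mice the involucrin promoter, a promoter of suprabasal keratinocytes, drives an activated MEK1 kinase. Whether each array stands for its own animal is not in the labels, so the p-values measure only the spread between arrays, which may be technical. The comparisons ask which of these proteases fibroblasts express in normal skin, next to an inflamed epidermis, and next to a tumour.

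Matrix metalloproteinases are zinc-dependent proteases that cleave collagens, elastin, proteoglycans and many cell-surface and signalling proteins. Most are made as inactive proenzymes whose prodomain has to be cut off by another protease, and the TIMP proteins block the active enzymes. Fibroblasts are a main source of several of them in healing skin and in tumour stroma, while keratinocytes, neutrophils and macrophages make others. Transcription of several family members depends on AP-1, a dimer of Fos and Jun proteins that binds near their start sites.

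Fibroblasts at tumours carried more RNA of 5 of the 10 genes than normal fibroblasts, where 9.65% of all genes passed the test in either direction. The 10 genes were chosen with earlier results of these data known, so these shares do not make a test of the family. Mmp13, the main interstitial collagenase of mice, went from near the lowest values of the array to values far above them. Mmp10 and Mmp11, the stromelysins 2 and 3, and Mmp9, gelatinase B, also rose, and so did Mmp19 by less. None of the 10 passed the test in inflamed skin against normal skin, where 0.533% of all genes did. Mmp14, a membrane-anchored member, was higher at tumours than in inflamed skin, while Mmp2, gelatinase A, and Mmp3, stromelysin 1, passed the test in no comparison on the probe set used. Because bulk RNA was measured, fewer cells of a type and less RNA per cell cannot be told apart.

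Promoter sequences from RefSeq (build GRCm38.p6) were matched for 7 of the 10 genes, and those of Mmp2, Mmp9 and Mmp19 are not shown here. The 200 bases before the annotated start are printed 5′ to 3′ on the gene's strand for the 3 genes with the largest changes and for Mmp3 and Mmp12, 2 neighbours of Mmp13 and Mmp10 on chromosome 9 that did not pass the test. Capitals mark the AP-1 motif TGAGTCA, or TGACTCA where it reads on the opposite strand, and the letters TATAAA read forward. The Mmp13 stretch covers chr9:7272314-7272513 (+), that of Mmp10 chr9:7502142-7502341 (+), that of Mmp3 chr9:7445622-7445821 (+) and that of Mmp12, from the second of its annotated starts, chr9:7347174-7347373 (+). The Mmp11 stretch covers chr10:75932503-75932702 (−).
Mmp13: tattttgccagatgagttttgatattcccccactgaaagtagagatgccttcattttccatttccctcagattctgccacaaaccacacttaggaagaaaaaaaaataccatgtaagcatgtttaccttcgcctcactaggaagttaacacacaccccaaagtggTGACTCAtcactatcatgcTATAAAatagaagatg
Mmp10: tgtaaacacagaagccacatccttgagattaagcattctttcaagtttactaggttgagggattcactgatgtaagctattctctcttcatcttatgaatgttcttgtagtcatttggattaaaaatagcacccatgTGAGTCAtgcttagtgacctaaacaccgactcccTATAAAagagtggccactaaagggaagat
Mmp3: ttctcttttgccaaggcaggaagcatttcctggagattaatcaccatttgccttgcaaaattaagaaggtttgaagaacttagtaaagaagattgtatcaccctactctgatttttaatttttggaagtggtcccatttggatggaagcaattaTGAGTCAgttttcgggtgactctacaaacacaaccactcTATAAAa
Mmp12: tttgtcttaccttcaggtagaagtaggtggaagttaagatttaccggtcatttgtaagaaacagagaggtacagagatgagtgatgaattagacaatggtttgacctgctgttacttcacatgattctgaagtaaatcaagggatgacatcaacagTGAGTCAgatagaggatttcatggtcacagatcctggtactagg
Mmp11: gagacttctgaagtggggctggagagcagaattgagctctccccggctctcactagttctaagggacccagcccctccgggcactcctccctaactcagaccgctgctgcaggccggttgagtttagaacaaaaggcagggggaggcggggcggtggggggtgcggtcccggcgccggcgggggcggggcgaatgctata
In the windows searched, 250 bases before and 50 after a start, the AP-1 motif was found for 4 of the 7 genes, the neighbours Mmp3, Mmp10, Mmp12 and Mmp13, and not for Mmp11, Mmp14 or Mmp23. Its first base lay 35 bases before the start in Mmp13 (on the opposite strand), 44 in Mmp12, 46 in Mmp3 and 63 in Mmp10. Of 32851 promoter windows of this length, 1709 (5.2%) hold the motif on either strand. The letters TATAAA were in the same 4 genes, in Mmp12 after the start, and in 2733 windows (8.32%). Mmp13 and Mmp10, whose RNA rose at tumours, and Mmp3, which did not pass the test, thus hold both motifs before the start. Mmp12, which did not pass it either, holds both only in the window of the second of its annotated starts. There TATAAA lies after the start, and the window of the first annotated start holds neither motif. Mmp11, which rose, has neither in its window.

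Mmp13 cleaves fibrillar collagens I, II and III. Its normalized log2 values in normal arrays 1 to 4 were 3.08, 2.89, 2.45 and 2.69, those in inflamed arrays 2.90, 2.96, 3.12 and 3.03, and those in tumour-associated arrays 10.38, 11.35, 9.77 and 9.96. All 4 tumour-associated arrays thus lay far above all 8 others, which overlapped with each other. The group means were 2.77 ± 0.27 (SD, n = 4), 3.00 ± 0.09 and 10.37 ± 0.71. Mmp13 rose by 7.59 ± 0.29 (SE) on the log2 scale at tumours against normal skin, which is 193-fold (limma, adjusted p = 4.49e-08), and by 7.36 ± 0.29 against inflamed skin (limma, adjusted p = 6.45e-08). The difference between inflamed and normal skin was 0.23, with a 95% interval from -0.40 to 0.86. Both lower groups were dim, meaning that their mean lay under 6.16, a limit below which 40% of all probe sets have their mean. Values this low depend on how background was treated, which the sources used here do not give, so the size of the fold does too. Measured from the dim limit instead, the tumour-associated mean was 18.4-fold higher.

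**Figure D1:**
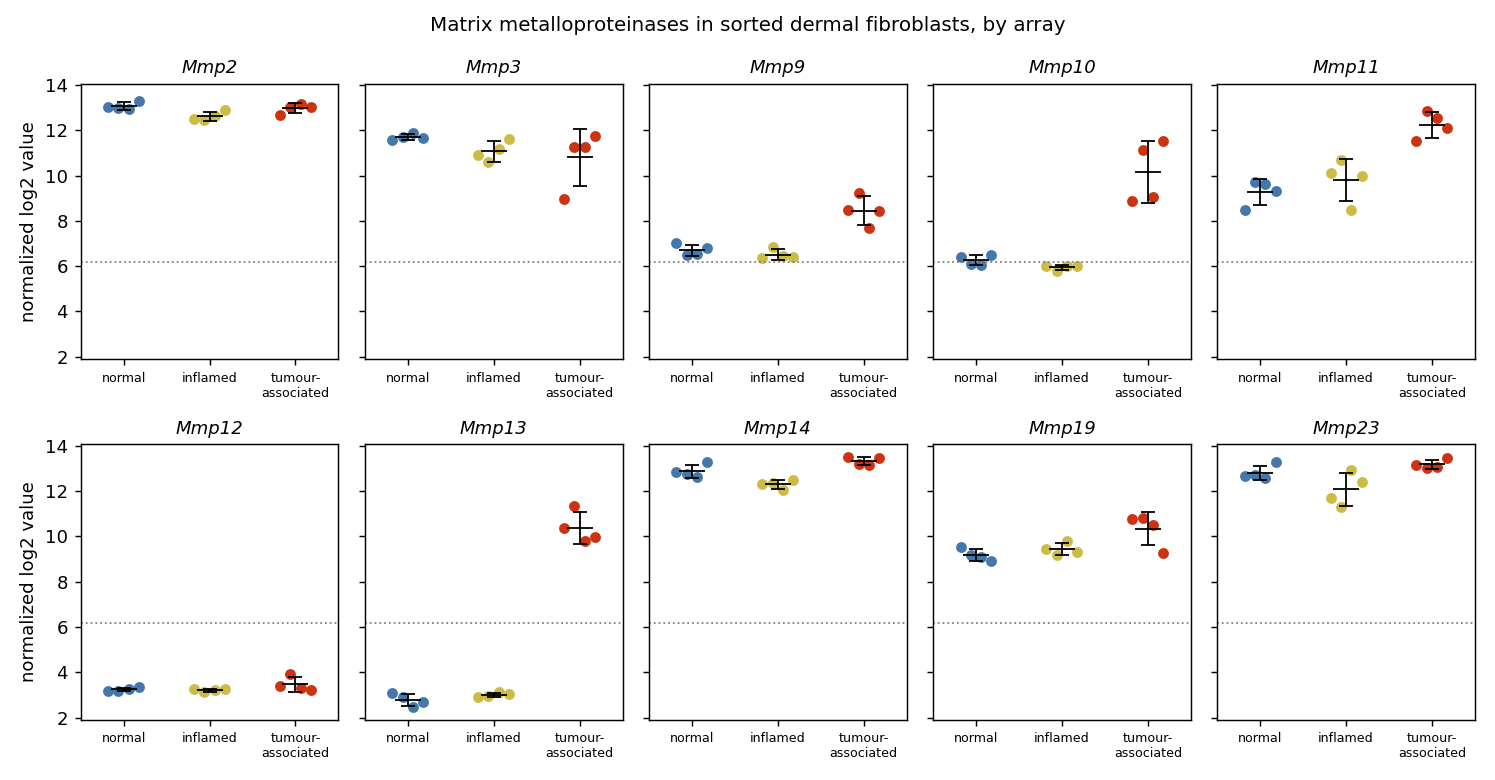
Normalized log2 values of the 10 genes on the 12 arrays, 1 panel a gene and 1 point an array, with the group mean and SD as bars and the dim limit of 6.16 as a dotted line. Mmp13 leaves the dim range at tumours only, Mmp10 goes from about the limit to between 8.89 and 11.51, Mmp12 stays below the limit in every group, and Mmp2, Mmp14 and Mmp23 are far above it throughout.

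The gelatinases cut denatured collagen and basement membrane collagen. Mmp2, gelatinase A, which fibroblasts make constitutively, had values of 13.02, 12.96, 12.92 and 13.31 in normal arrays, 12.49, 12.45, 12.65 and 12.90 in inflamed arrays and 12.69, 13.04, 13.16 and 13.03 in tumour-associated arrays. The 4 inflamed arrays lay below all normal arrays, and the tumour-associated arrays overlapped with both groups. The difference between inflamed and normal skin, -0.44 ± 0.16 (SE), did not pass the test over all genes (limma, adjusted p = 0.227). At tumours Mmp2 differed from normal skin by -0.07, with a 95% interval from -0.42 to 0.27, and from inflamed skin by 0.36 (limma, adjusted p = 0.176). The second probe set of Mmp2 gave 0.72 ± 0.19 for tumours against inflamed skin (limma, adjusted p = 0.0503 over all probe sets). That comparison passed the test with the mean of both probe sets (0.54; limma, adjusted p = 0.0497) and without cross-matching probe sets (0.72; limma, adjusted p = 0.0448).

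Mmp9, gelatinase B, is made by neutrophils, macrophages and keratinocytes as well as by stimulated fibroblasts. On the probe set used it had 7.00, 6.47, 6.52 and 6.82 in normal arrays, 6.34, 6.84, 6.44 and 6.42 in inflamed arrays and 8.47, 9.23, 7.69 and 8.43 in tumour-associated arrays. The tumour-associated arrays did not overlap with the others, and array 3 was the lowest of them. Mmp9 rose by 1.75 ± 0.27 (SE) against normal skin, or 3.37-fold (limma, adjusted p = 0.00181), and by 1.95 ± 0.27 against inflamed skin (limma, adjusted p = 0.0015). Its other probe set was dim in normal and inflamed skin (5.72 ± 0.29 and 5.63 ± 0.25, SD) and stood at 9.87, 10.29, 8.08 and 10.14 in tumour-associated arrays. There the change against normal skin was 3.88 ± 0.40 (limma, adjusted p = 1.28e-04 over all probe sets). Both probe sets thus called Mmp9 higher at tumours, with array 3 lowest in each, but gave different sizes for the change.

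The stromelysins cut proteoglycans, laminin and fibronectin, and some activate other proenzymes. Mmp3, stromelysin 1, had 11.59, 11.69, 11.86 and 11.65 in normal arrays, 10.89, 10.58, 11.16 and 11.63 in inflamed arrays and 8.95, 11.27, 11.28 and 11.75 in tumour-associated arrays. Tumour-associated array 1 stood below every other array, while array 4 lay among the normal ones. Mmp3 differed by -0.89 ± 0.49 (SE) between tumours and normal skin (limma, adjusted p = 0.317), and by -0.27 when tumour-associated array 1 was left out. Against inflamed skin the difference was -0.25, and 0.37 without that array.

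Mmp10, stromelysin 2, is known from migrating keratinocytes at wound edges as well as from fibroblasts. It had 6.41, 6.10, 6.05 and 6.47 in normal arrays, 5.988, 5.769, 5.998 and 6.008 in inflamed arrays and 8.89, 11.11, 9.06 and 11.51 in tumour-associated arrays. The tumour-associated arrays fell into a lower pair, 1 and 3, and a higher pair, 2 and 4, and the lower pair was still above all 8 other arrays. The inflamed arrays, whose mean was dim, lay below all normal arrays by a narrow margin. Mmp10 rose by 3.89 ± 0.50 (SE) against normal skin, which is 14.8-fold (limma, adjusted p = 4.69e-04), and by 4.20 ± 0.50 against inflamed skin (limma, adjusted p = 4.76e-04). The inflamed group was dim, normal arrays 2 and 3 also lay under the dim limit, and the normal mean, 6.26, was just above it. The sizes of both changes thus depend on the background treatment, and from the dim limit the tumour-associated mean was 15.8-fold higher.

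Mmp11, stromelysin 3, is activated by furin inside the cell and is known as a stromal gene of carcinomas. It had 8.46, 9.70, 9.61 and 9.31 in normal arrays, 10.11, 10.67, 8.49 and 9.98 in inflamed arrays and 11.52, 12.83, 12.56 and 12.09 in tumour-associated arrays. No tumour-associated array overlapped with another group, and the inflamed and normal arrays did. Mmp11 rose by 2.98 ± 0.45 (SE) against normal skin, or 7.89-fold (limma, adjusted p = 0.00142), and by 2.44 ± 0.45 against inflamed skin (limma, adjusted p = 0.00738). The difference between inflamed and normal skin, 0.54, had a 95% interval from -0.43 to 1.51.

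Mmp12, the metalloelastase of macrophages, was dim in every group, between 3.12 and 3.35 in normal and inflamed arrays and at 3.40, 3.93, 3.31 and 3.20 in tumour-associated arrays. Its difference of 0.22 between tumours and normal skin had a 95% interval from -0.13 to 0.57. It was the 1 gene of the 10 that was dim in all groups, as were 25.4% of all genes, while Mmp13 and Mmp10 were dim in some groups and the other 7 in none.

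Mmp14, which encodes MT1-MMP, a collagenase anchored in the plasma membrane that activates the proenzyme of Mmp2, had 12.84, 12.74, 12.61 and 13.27 in normal arrays. It had 12.32, 12.34, 12.04 and 12.49 in inflamed arrays and 13.51, 13.20, 13.13 and 13.44 in tumour-associated arrays. The inflamed arrays lay below all 8 others, and normal array 4 lay among the tumour-associated arrays. Mmp14 was 1.02 ± 0.17 (SE) higher at tumours than in inflamed skin, or 2.03-fold (limma, adjusted p = 0.00462). Against normal skin it was 0.45 ± 0.17 higher (limma, adjusted p = 0.135, and 0.58 with an adjusted p = 0.0415 without normal array 4). In inflamed skin it was -0.57 ± 0.17 against normal skin (limma, adjusted p = 0.156). Of its 2 other probe sets, the difference between tumours and inflamed skin was 1.05 on one (limma, adjusted p = 0.00529 over all probe sets) and 0.52 on the other (limma, adjusted p = 0.161).

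Mmp19, a broad-spectrum member present in resting skin, had 9.54, 9.16, 9.10 and 8.90 in normal arrays, 9.44, 9.17, 9.79 and 9.32 in inflamed arrays and 10.74, 10.82, 10.48 and 9.25 in tumour-associated arrays. Tumour-associated arrays 1 to 3 stood above all others, and array 4 lay within the normal range. Mmp19 rose by 1.15 ± 0.31 (SE) against normal skin, or 2.22-fold (limma, adjusted p = 0.0355). This call was lost when any of normal arrays 2, 3 and 4, inflamed arrays 1 and 4 or tumour-associated arrays 1, 2 and 3 was left out, where the change lay between 0.98 and 1.15 with an adjusted p of up to 0.0945. The other probe set of Mmp19 rose by 1.24 ± 0.25 (limma, adjusted p = 0.01 over all probe sets). Against inflamed skin Mmp19 was 0.89 higher (limma, adjusted p = 0.101, and 1.25 with an adjusted p = 0.00329 without tumour-associated array 4).

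Mmp23, a member with a transmembrane segment that is released by cleavage, had 12.64, 12.70, 12.58 and 13.26 in normal arrays, 11.68, 11.28, 12.92 and 12.41 in inflamed arrays and 13.16, 13.02, 13.04 and 13.48 in tumour-associated arrays. Inflamed arrays 1 and 2 were the lowest of the 12, and all tumour-associated arrays lay above all inflamed ones. The difference of 1.10 ± 0.31 (SE) between tumours and inflamed skin did not pass the test (limma, adjusted p = 0.0554), and gave 1.39 with an adjusted p = 0.0122 without inflamed array 3. Against normal skin tumours differed by 0.38, with a 95% interval from -0.30 to 1.06.

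**Figure D2:**
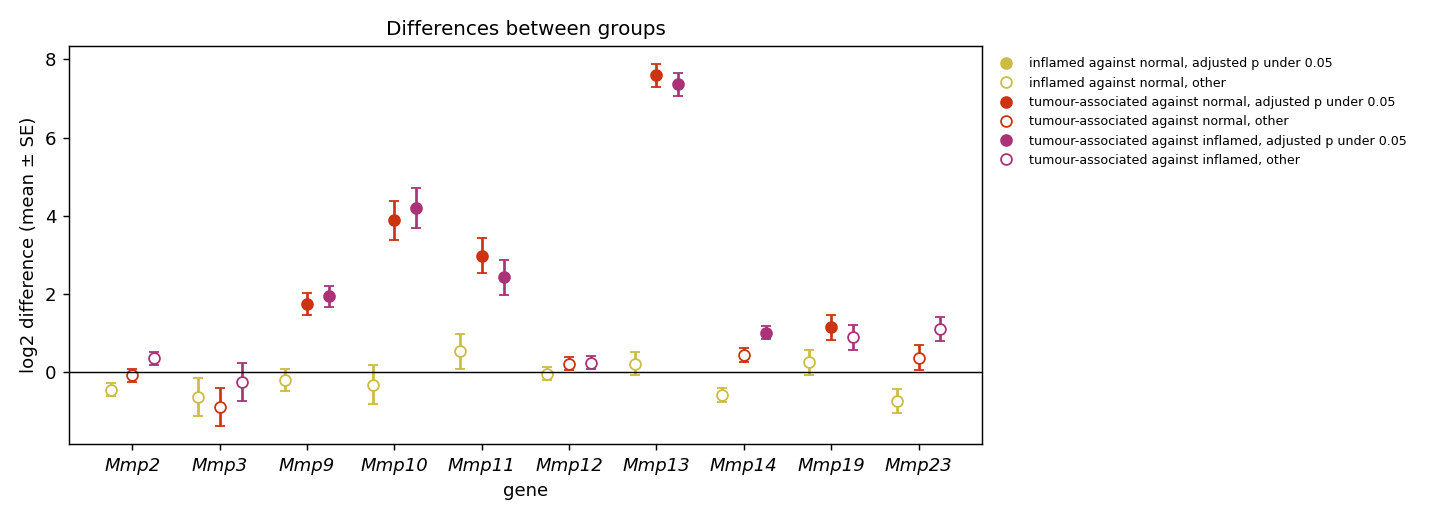
Log2 differences of the 10 genes in the 3 comparisons, with SE as bars and filled points for an adjusted p under 0.05. The inflamed against normal differences are all open and lie between -0.72 and 0.54, and the filled points of both tumour comparisons lie above 1.

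Counted over the 10 genes, none passed the test in inflamed against normal skin, where 97 of all 18193 genes did and 2837 had an unadjusted p under 0.05. At an unadjusted p under 0.05 this comparison held Mmp2, Mmp14 and Mmp23, all lower in inflamed skin. The groups did not overlap for 3 of the 10, Mmp2, Mmp10 and Mmp14, all lower in inflamed skin, against 10.2% of all genes lower without overlap, 5.07% higher and 15.3% in all. In that comparison 7 of the 10 differences were negative, with a median of -0.26 where all genes had -0.09. In tumour-associated against normal skin 5 of 10 were called higher and none lower, against 4.85% of all genes called higher and 4.8% called lower. The groups did not overlap for 4 of them, all higher, against 7.22% of all genes higher, 6.56% lower and 13.8% in all. The median of the 10 was 0.80, and that of all genes 0.04. In tumour-associated against inflamed skin 5 of 10 were called higher, with Mmp14 in place of Mmp19, and none lower, against 3.67% and 3.04% of all genes, or 6.71% in all. Here 6 of 10 did not overlap, all higher, against 14.5% of all genes higher, 6.66% lower and 21.1% in all. The median was 1.06 where all genes had 0.12. The 3 comparisons share groups, so their counts are not independent of each other. Because the 10 genes were chosen with earlier results of these data known, the counts beside the shares of all genes are descriptive only.

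**Figure D3:**
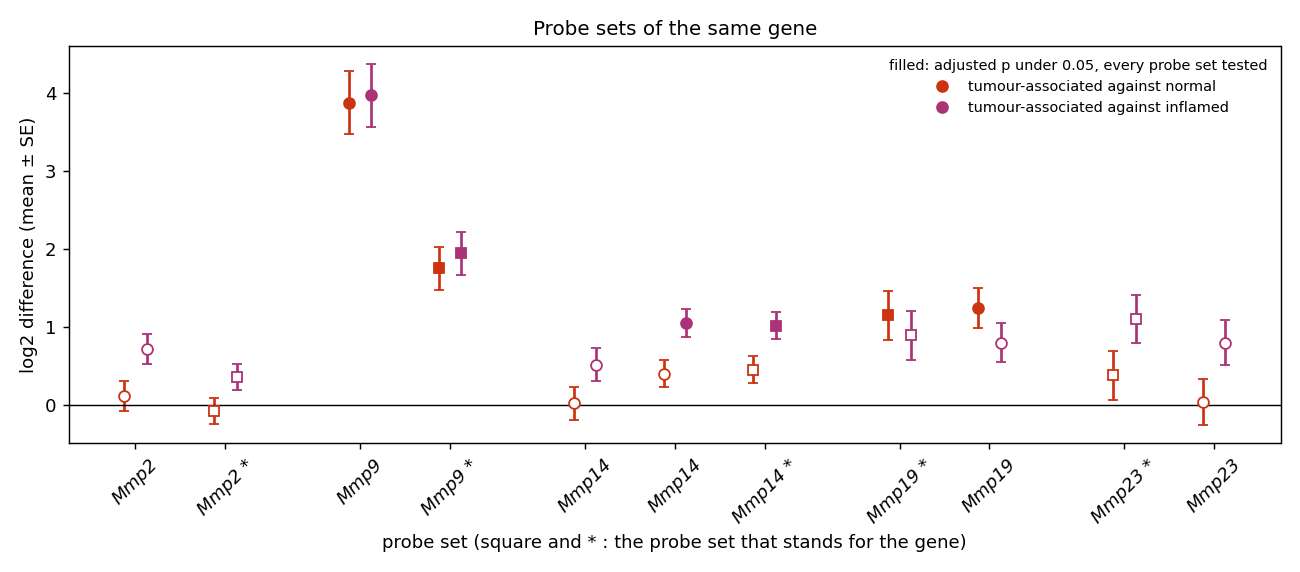
Log2 differences of each probe set of the 5 genes with several, at tumours against normal and against inflamed skin, with SE as bars and filled points for an adjusted p under 0.05 over all probe sets. Squares mark the probe set that stood for the gene. Mmp9 has both probe sets filled at different sizes (1.75 and 3.88 against normal skin), and 1 of the 3 probe sets of Mmp14 is open against inflamed skin.

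Of the 13 other matrix metalloproteinases listed, 8 were measured, and at tumours 3 were called higher than in normal skin, where 4.85% of all genes were. This list and those below were also chosen with earlier results of these data known. Mmp16, a membrane-type member, had 8.06, 7.12, 6.67 and 6.21 in normal arrays and 8.689, 9.996, 9.124 and 8.400 in tumour-associated arrays, without overlap. It rose by 2.04 ± 0.41 (SE; limma, adjusted p = 0.008), and 2 of its 3 other probe sets also passed the test, at 2.51 and 2.18. Mmp8, the neutrophil collagenase, rose by 1.86 ± 0.53 (limma, adjusted p = 0.0472), with 5.70, 7.74, 5.97 and 8.59 at tumours against 4.60 to 5.55 in normal arrays. Normal and inflamed skin were dim for Mmp8, and so were tumour-associated arrays 1 and 3, so this size depends on the background treatment, and from the dim limit the tumour-associated mean was 1.79-fold higher. As with Mmp10, tumour-associated arrays 2 and 4 were the higher pair. Mmp17, a further membrane-type member, rose by 1.21 ± 0.32 (limma, adjusted p = 0.0348). The call of Mmp8 was kept in 2 of the 12 fits that left out 1 array (without tumour-associated array 1 or 3), with values from 1.33 to 2.29. That of Mmp17 was kept in 3 of 12 (without inflamed array 3 or 4 or tumour-associated array 3), with values from 0.91 to 1.52. Mmp8 was also called against inflamed skin (2.09 ± 0.53; limma, adjusted p = 0.0365), a call kept in 4 of 12 such fits (1.56 to 2.53), those without normal array 2 or 4 or tumour-associated array 1 or 3. With the spike level of each array as a covariate (described last) it was 0.75 and not called (limma, adjusted p = 0.71), and against normal skin 1.62 (adjusted p = 0.0604).

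Mmp13, Mmp12, Mmp3, Mmp10 and Mmp8 belong to an uninterrupted run of 10 Mmp genes on mouse chromosome 9, in the RefSeq order Mmp13, Mmp12, Mmp1b, Mmp3, Mmp1a, Mmp10, Mmp8, Mmp27, Mmp20 and Mmp7. Of these, 9 were measured and 3 rose at tumours against normal skin, Mmp13, Mmp10 and Mmp8, and the genes between them did not pass the test. Mmp12, Mmp1b, Mmp1a, Mmp20 and Mmp7 were dim in all groups. Mmp1a and Mmp1b, the mouse relatives of human interstitial collagenase, had group means between 2.91 and 3.43. Dcun1d5, the gene next to Mmp13 outside the run, differed by -0.10 between tumours and normal skin, and Tmem123, next to Mmp7 at the other end, rose by 1.97 ± 0.26 (SE; limma, adjusted p = 6.06e-04).

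**Figure D4:**
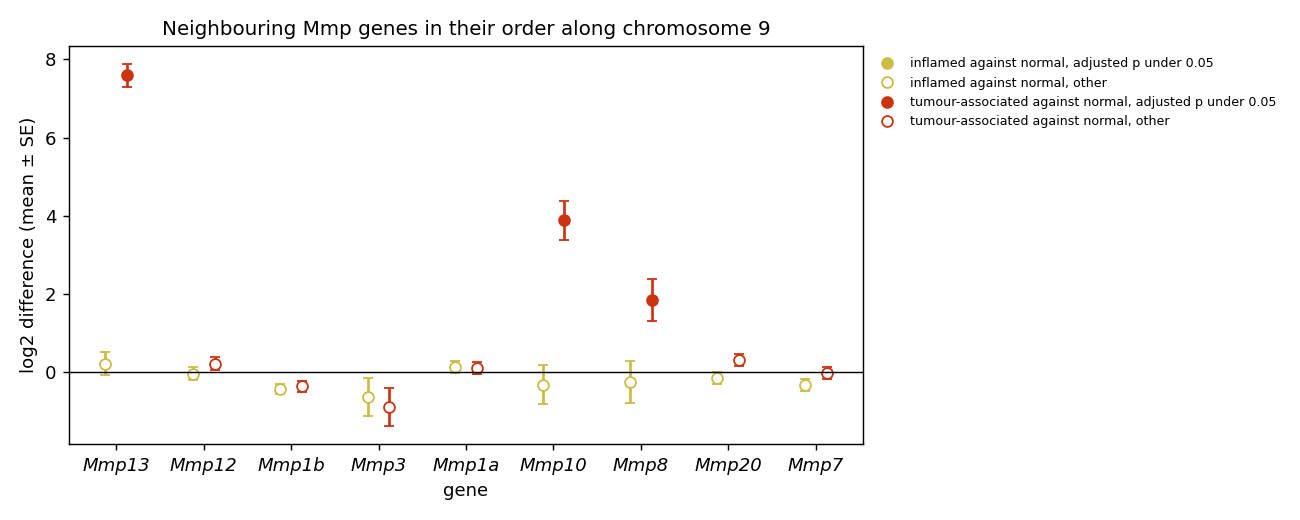
Log2 differences of the 9 measured genes of the run of Mmp genes, in their order along chromosome 9, with SE as bars and filled points for an adjusted p under 0.05. The filled points at tumours are Mmp13 (7.59), Mmp10 (3.89) and Mmp8 (1.86), and the genes between them lie within 1 of 0.

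Among 7 inhibitors of metalloproteinases, 2 rose and 1 fell at tumours in both comparisons, and none was called in inflamed against normal skin. Of all genes 4.85% were called higher and 4.8% lower at tumours against normal skin, and 3.67% and 3.04% against inflamed skin. Timp1, a secreted inhibitor that many stimuli induce, had 8.25, 8.26, 8.87 and 9.15 in normal arrays, 8.98, 9.68, 8.95 and 8.96 in inflamed arrays and 11.74, 11.70, 12.24 and 10.90 in tumour-associated arrays. It rose without overlap by 3.02 ± 0.30 (SE) against normal skin (limma, adjusted p = 8.41e-05) and by 2.505 against inflamed skin (limma, adjusted p = 5.12e-04). Tfpi2, a serine protease inhibitor that also acts on some metalloproteinases, rose from a dim 4.81 ± 0.29 (SD) to 8.85 ± 0.83, a difference of 4.04 ± 0.45 (SE; limma, adjusted p = 1.81e-04), or 6.44-fold when measured from the dim limit.

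Reck, a membrane-anchored inhibitor of Mmp2, Mmp9 and Mmp14, had 11.43, 11.49, 11.29 and 11.08 in normal arrays, 11.13, 11.06, 10.75 and 11.23 in inflamed arrays and 8.75, 9.34, 9.93 and 8.99 in tumour-associated arrays. All tumour-associated arrays lay below all others. Reck fell by 2.07 on the log2 scale against normal skin (SE 0.23; limma, adjusted p = 1.94e-04), which is 4.2-fold. Against inflamed skin it fell by 1.79 (limma, adjusted p = 7.94e-04, and 0.117 with the spike covariate). Timp2, which both inhibits Mmp14 and takes part in the activation of Mmp2 by it, differed by -0.57 ± 0.14 in inflamed against normal skin (limma, adjusted p = 0.0922) and by -0.14 at tumours. Timp3, Timp4 and A2m were called in no comparison on the probe set used. Another probe set of Timp3 passed the test at tumours against inflamed skin, at 0.61 (limma, adjusted p = 0.0308 over all probe sets), and its remaining ones did not.

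Of 15 genes on the list of activators, which also holds the growth factor Hgf, 4 rose at tumours against normal skin and none fell. The shares of all genes were 4.85% called higher and 4.8% called lower. Plat, tissue plasminogen activator, had 7.84 to 8.99 in the 8 normal and inflamed arrays and 11.36, 11.18, 11.11 and 11.04 at tumours, and rose by 2.71 ± 0.26 (SE; limma, adjusted p = 5.99e-05). Plau, urokinase, had 8.49, 10.31, 10.38 and 9.75 at tumours against 8.17 to 8.52 in normal arrays, so that array 1 overlapped with the normal ones. Plau rose by 1.43 ± 0.36 (limma, adjusted p = 0.0268), and its second probe set, at 0.54, did not pass the test. The call of Plau was lost without normal array 1, 2 or 4 or tumour-associated array 2 or 3, with values from 1.21 to 1.84 over the fits without 1 array. Pcsk5, a proprotein convertase, rose by 1.03 ± 0.25 (limma, adjusted p = 0.021), with 1 of its 4 other probe sets called, and the call was lost without normal array 3 or tumour-associated array 3 (0.90 to 1.24).

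Hgf, a growth factor related to plasminogen in sequence and counted in the same list, rose by 2.31 ± 0.19 on the probe set used (limma, adjusted p = 1.74e-05), while its other probe sets gave 1.51 and 0.17 and were not called. Plaur, the urokinase receptor, differed by 0.39 from normal skin and was 1.37 ± 0.25 higher at tumours than in inflamed skin (limma, adjusted p = 0.00704, and 0.81 with an adjusted p = 0.346 with the spike covariate). Furin, which activates Mmp11 and Mmp14, was 0.68 higher at tumours than in normal skin and not called (limma, adjusted p = 0.124). Of the 3 measured inhibitors of the plasminogen system, Serpini1 rose at tumours against normal skin by 0.96 ± 0.22 (limma, adjusted p = 0.0158). Against inflamed skin it rose by 1.10 (limma, adjusted p = 0.0117, and 0.0897 with the spike covariate). Serpini1 was dim in normal and inflamed skin, and from the dim limit its tumour-associated mean was 1.91-fold higher. With the mean of its probe sets both calls were lost, at 0.37 and 0.27 (limma, adjusted p = 0.0919 and 0.181). Serpinf2 rose against inflamed skin by 0.63 ± 0.16 (limma, adjusted p = 0.0369), a call that 7 of 12 fits without 1 array lost (0.56 to 0.72).

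**Figure D5:**
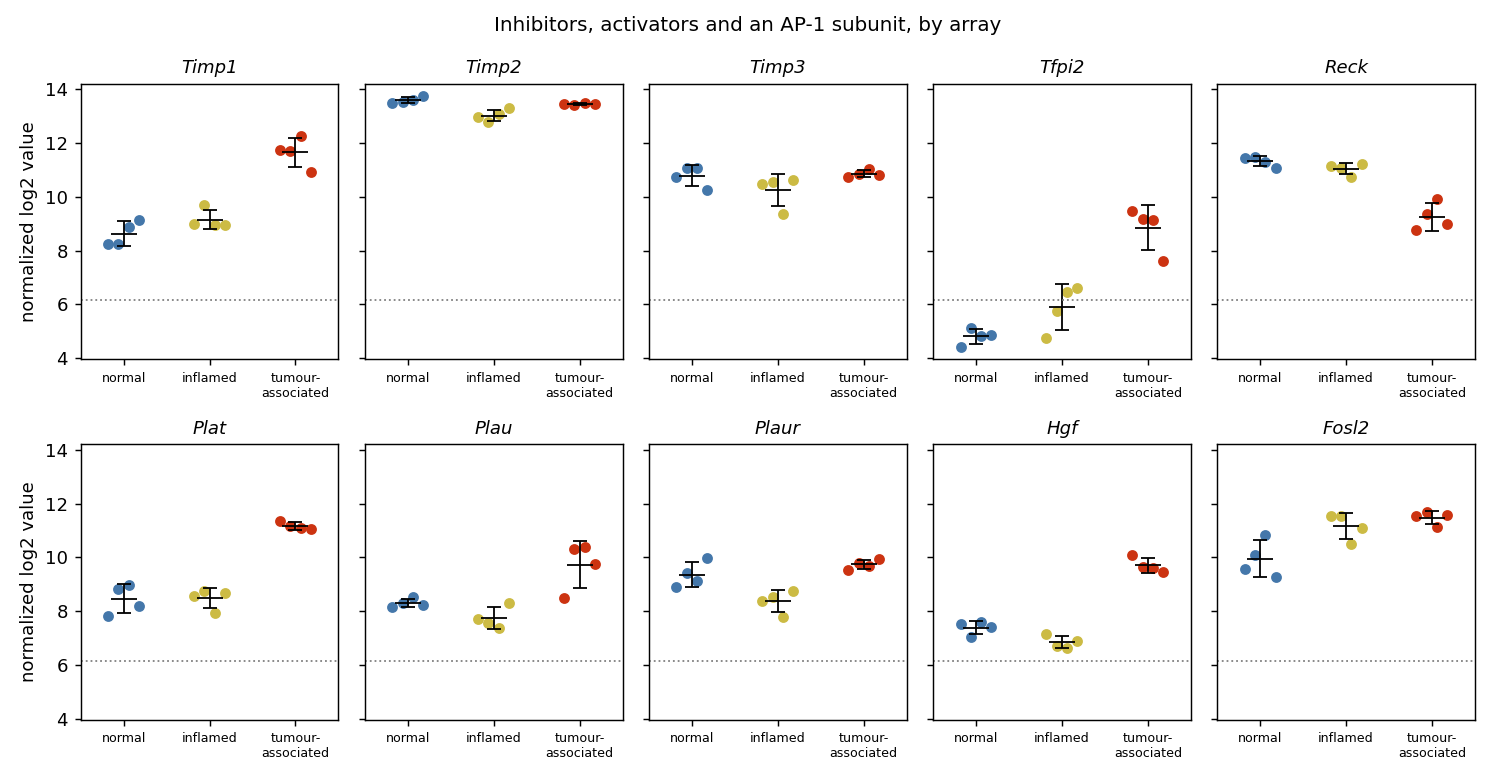
Normalized log2 values by array of 5 inhibitors (top), 4 genes of the activator list and the AP-1 subunit Fosl2 (bottom), with group means and SD as bars and the dim limit of 6.16 as a dotted line. Timp1, Tfpi2, Plat and Hgf are higher and Reck is lower in all 4 tumour-associated arrays than in the 8 others, while Fosl2 overlaps between inflamed and tumour-associated arrays.

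Of 9 AP-1 subunits, 1 rose and 5 fell at tumours against normal skin, where 4.85% of all genes were called higher and 4.8% lower. Atf3 fell by 2.20 on the log2 scale (SE 0.58; limma, adjusted p = 0.0325; lost without normal array 1, 2 or 3 or tumour-associated array 2 or 4, where it reached -1.79) and Fosl2 rose by 1.53 ± 0.33 (limma, adjusted p = 0.0114), although its other probe set gave 0.14. Fos, Fosb, Jun and Junb were the other subunits that fell, and Fosl1 differed by -0.22. The second probe set of Jun, at -0.52, did not pass the test (limma, adjusted p = 0.16 over all probe sets). Several of these subunits are immediate early genes, and their part in the values of the metalloproteinases was not tested. Whether the AP-1 motif in the sequences of Mmp3, Mmp10, Mmp12 and Mmp13 bears on their values was not tested either.

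Of 13 measured ADAM and ADAMTS proteases, which belong to the same clan of metalloenzymes, 5 rose at tumours against normal skin and none fell. For all lists in this paragraph the shares of all genes were 4.85% called higher and 4.8% called lower. Adam12 rose by 6.14 ± 0.49 (SE; limma, adjusted p = 1.73e-05) and Adam19 by 3.53 ± 0.36 (limma, adjusted p = 1.03e-04). Of 12 measured matrix substrates 4 rose, led by Tnc, tenascin C, at 6.07 ± 0.53 (limma, adjusted p = 3.14e-05) and Col7a1, the chain of anchoring fibrils, at 4.66 ± 0.25 (limma, adjusted p = 8.87e-07), and Eln, elastin, fell by 2.39 (SE 0.23). Among 15 measured inducers and partners, Cd44, a hyaluronan receptor that can hold Mmp9 at the cell surface, rose by 2.297 ± 0.489 (limma, adjusted p = 0.0113) and Egfr fell by 1.04 (SE 0.25; limma, adjusted p = 0.0217; lost without normal array 1 or 2).

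The genes whose pattern over the 12 arrays was most like that of Mmp13 were named by the mean absolute log2 difference per array, after the normal mean of each gene was subtracted. They were Prss35, a protein related to serine proteases (0.64), the keratin gene Krt6b (0.79), Col12a1, a fibril-associated collagen (0.90), Ucn2, a neuropeptide (1.18), and Pla1a, a phospholipase (1.18). Their changes at tumours against normal skin were 7.01, 5.66, 6.02, 4.92 and 5.37. Like Mmp13, Prss35 (4.71 and 5.70) and Krt6b (2.69 and 2.76) were dim in normal and inflamed skin and not at tumours (11.73 and 8.35), and Ucn2 (6.06) and Pla1a (6.10) were dim in normal skin. For these genes the likeness thus rests in part on values near background.

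Markers of other cells that make these proteases moved with the groups in part. Of all genes, 4.85% were called higher and 4.8% lower at tumours against normal skin. Against inflamed skin these shares were 3.67% and 3.04%, and in inflamed against normal skin 0.258% and 0.275%. Of 19 measured keratinocyte markers, 3 were called higher at tumours than in normal skin (Krt6a, Krt14 and Dsp) and 2 in inflamed skin (Krt15 and Perp). The inflamed calls were kept in 8 of 12 fits without 1 array for Krt15 and 4 for Perp, and both were lost with the spike covariate (limma, adjusted p = 0.201 and 0.376). The mean of the list lay between 6.30 and 6.48 in normal, 7.07 and 8.22 in inflamed and 6.53 and 7.90 in tumour-associated arrays, and 8, 2 and 4 of the 19 were dim. The group mean of the list was 6.38 in normal arrays, 7.57 in inflamed arrays and 7.13 at tumours. The list does not hold Krt6b, the keratin gene named above among those most like Mmp13. Krt6a stood between 6.355 and 7.187 in inflamed arrays and at 7.11, 8.01, 9.84 and 10.55 in tumour-associated arrays 1 to 4. Of 9 measured neutrophil markers, S100a9 and Mpo were called higher in both tumour comparisons, and the list mean went from 5.66 to 5.94 in normal arrays and 5.60 to 5.72 in inflamed arrays to 6.01 to 6.28 at tumours, with 6, 7 and 4 dim. S100a9 and Mpo were dim in normal and inflamed skin, and from the dim limit their tumour-associated means were 1.91-fold and 1.3-fold higher. The neutrophil list had group means of 5.76, 5.69 and 6.14 in normal, inflamed and tumour-associated arrays. A list of genes of other organs had 6.23, 6.02 and 6.53, with Alb the 1 gene of 19 called higher at tumours. Neutrophils make Mmp8 and Mmp9. Leaving out 1 array kept the call against normal skin in 12 of 12 fits for S100a9, 4 for Mpo, 8 for Krt6a, 11 for Krt14 and 7 for Dsp, and Krt14 also lost it without cross-matching probe sets (1.66; limma, adjusted p = 0.101). Against inflamed skin the call was kept in 6 of 12 for S100a9 and in 12 for Mpo, and both lost it with the spike covariate (limma, adjusted p = 0.375 and 0.255). Of 12 measured macrophage markers, none was called higher in a tumour comparison and Csf1r was lower than in normal skin, with list means from 6.30 to 6.76, 5.97 to 6.51 and 6.30 to 6.59 in the 3 groups. None of the 12 fibroblast markers was dim, with list means from 12.64 to 13.15, and Pdgfra, the gene of the sort reporter, was 0.93 ± 0.25 (SE) higher at tumours than in normal skin (limma, adjusted p = 0.0349; kept in 5 of 12 such fits). Against inflamed skin the fibroblast markers Dpt and Pdgfrb were called 0.48 and 0.55 higher, calls kept in 1 and 9 of 12 such fits. Of 10 pericyte and smooth muscle markers, Kcnj8, Ndufa4l2 and Abcc9 were lower at tumours than in normal skin, by -4.01, -3.20 and -2.12. Against inflamed skin Kcnj8, Ndufa4l2, Cspg4 and Notch3 were lower, by -2.14, -2.08, -1.34 and -1.31. Pdgfrb, which belongs to this list too, was higher there. The median difference of the 10 was -0.58 against normal and 0.04 against inflamed skin. Group means of this list were 9, 8.79 and 8.39 in normal, inflamed and tumour-associated arrays. Acta2 was 4.32 higher than in normal skin, and 0.98 higher and not called without cross-matching probe sets (limma, adjusted p = 0.0689). With the spike covariate the calls of Dpt, Pdgfrb, Cspg4 and Notch3 were lost. The calls of Abcc9, Cspg4 and Notch3 were kept in 5, 4 and 7 of 12 fits without 1 array. The part of these cells in the values of the metalloproteinases was not tested.

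Affymetrix poly-A spike controls also moved with the groups. Normal arrays had a spike mean of 10.50 ± 1.20 (SD, n = 4), inflamed arrays of 8.20 ± 0.33 and tumour-associated arrays of 10.99 ± 1.06. For inflamed against normal arrays this is a difference of -2.30 (exact two-sided permutation p = 0.0286, the smallest that 4 against 4 arrays allow; adjusted p = 0.0858). The spikes of tumour-associated arrays lay 0.49 above those of normal arrays (exact permutation p = 0.571) and 2.79 above those of inflamed arrays (exact permutation p = 0.0286; adjusted p = 0.0858). With the spike level as a covariate, Mmp13 was the 1 gene of the 10 still called at tumours against inflamed skin, and Mmp9 (1.62; limma, adjusted p = 0.126), Mmp10 (3.02; adjusted p = 0.0982), Mmp11 (2.75; adjusted p = 0.127) and Mmp14 (0.53; adjusted p = 0.284) were not. Against normal skin Mmp9, Mmp10, Mmp11, Mmp13 and Mmp19 kept their calls with that covariate. Spike levels lay between 7.88 and 8.65 in inflamed arrays and between 9.30 and 12.41 in all others. Group and spike level can thus hardly be told apart in comparisons with inflamed arrays. For every gene, a call lost there with the covariate cannot be read as an effect of the spikes. Mmp11 lost its call although its estimate went from 2.44 to 2.75. Hybridisation controls differed by -0.46 for inflamed against normal (exact permutation p = 0.0286; adjusted p = 0.0858). The 3′ minus 5′ probe set difference rises as RNA degrades. For actin it was -0.1 at tumours and -0.45 in normal arrays, 0.35 higher at tumours (exact permutation p = 0.0286; adjusted p = 0.0858). For Gapdh it was 2.73 and 1.89, 0.84 higher at tumours (exact permutation p = 0.0571; adjusted p = 0.0979). Tumour-associated array 4 had the highest of both, 0.30 for actin and 3.79 for Gapdh. Without that array Mmp9, Mmp10, Mmp11, Mmp13 and Mmp19 were still called at tumours against normal skin. The part of RNA quality in these values was not tested.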

How the data were processed

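The authors' deposited log2 values, 1 for each of 45101 probe sets on 12 arrays, lay between 2.08 and 14.96. The submitters' processing notes name limma, and for the summary method, background correction and normalization the sources used here give nothing. The arrays' quartiles spanned up to 0.284, so the deposited log2 values were quantile-normalized. Of the probe sets, 64 were Affymetrix controls, 34945 had exactly 1 symbol in the platform annotation, 932 had several and 9160 had none; 34741 matched a RefSeq gene and no symbol was updated. This gave 18193 genes. All 12 arrays entered a single linear model of the 3 groups in limma 3.58.1 (lmFit, eBayes; R 4.3.3). Calls needed a two-sided p under 0.05 after Benjamini-Hochberg adjustment across genes. Fits over all probe sets were adjusted over those. The script was tested on simulated data. Arrays of a group correlated at 0.89 to 0.987 and no pair shared more than 0.253% of identical values, so no array was a copy of another. Each array counted as 1 replicate, although these values cannot show whether arrays stand for separate animals. Precision is limited by the 4 arrays per group.

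The members and all gene lists were chosen with earlier results of these data known. The text names all 10 members, every called gene of the lists of other metalloproteinases, inhibitors, activators and plasminogen inhibitors, the 2 largest called changes of the lists of ADAM proteases, AP-1 subunits, inducers and substrates, called cell markers, and the 5 genes most like the member with the largest change; members of these lists that were not called, Fos, Jun, Fosb and Junb, Tmem123 and Dcun1d5 were named after their values were seen. Lists of dendritic, T and mast, endothelial and other-organ genes were also run: no T, mast or endothelial marker was called, H2-Ab1 differed by -1.60 and Alb by 3.32 between tumours and normal skin, and Alb by 3.47 between tumours and inflamed skin. In inflamed against normal skin the called pericyte markers were Acta2 (2.99), Kcnj8 (-1.86) and Ndufa4l2 (-1.12). Promoter windows came from RefSeq (GRCm38.p6) and were searched for exact matches.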

Additional observations from a re-analysis of the deposited data

Results flagged for a closer look

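Of 30 sets of 4 arrays (10 genes in 3 groups), 1 held an array far from the rest of its group. The Mmp10 value of inflamed array 2 was 5.769 on the log2 scale, where the other inflamed arrays lay between 5.988 and 6.008. Its gap to the nearest array was 0.915 of the group's whole range, above Dixon's 95% critical value of 0.829. All 4 values lay under the dim limit of 6.16, and chance alone marks about 1 in 20 such sets.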

How the results depend on the processing

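Over 23 alternatives the 30 member differences gave 684 values, of which 647 kept sign and side of the threshold and none of the called ones changed sign. The calls of Mmp9, Mmp10, Mmp11 and Mmp13 at tumours against normal skin held in all that could be run; leaving out dim genes removed Mmp12 and Mmp13. Members called at tumours against inflamed skin numbered 8 with the mean of a gene's probe sets and 1 with the spike covariate (5 without), and 5 to 6 when 1 array was left out; against normal skin they numbered 4 to 5, and in inflamed against normal skin 0 throughout. Mmp9 rose by 2.81 against normal skin with the mean of its probe sets. Over all genes, 97 were called in inflamed against normal skin, 62 on values as deposited, 228 with the mean of probe sets, 57 with the replicate block, 0 with the spike covariate and 0 at an adjusted p under 0.01. That count ran from 0 (without normal array 1 or inflamed array 1 or 2) to 249 (without tumour-associated array 4). At tumours against normal skin 1756 genes became 1094 with only 8 arrays and 757 at 0.01, and 1259 to 1792 without 1 array. Against inflamed skin 1221 became 3287 after a shift by 46 ribosomal protein genes, 241 with the spike covariate and 396 at 0.01, and 578 (without inflamed array 1) to 1581 without 1 array. With every probe set tested on its own, 3107 probe sets were called against normal and 2088 against inflamed skin. The cause was not tested. The shift moved the medians to -0.28, 0.25 and 0.51, and the share of calls that were higher from 48.5% to 27.9%, from 50.3% to 69.5% and from 54.7% to 90.6% in the 3 comparisons. Acta2 in inflamed skin went from 2.987 to -0.051 without cross-matching probe sets. Same-numbered arrays deviated together in 2 of 12 pairs only (correlations from -0.094 to 0.177), so the numbers were not taken as pairing; with the replicate block, 5 members were called in each tumour comparison and 0 in inflamed against normal skin.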
